A study of Mus musculus with 52 samples.

Results

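An antagonist of the receptor EP1 or EP3 was added to mouse type 1 conventional dendritic cells (cDC1) before the cells met prostaglandin E2 (PGE2). The RNA of the cells was compared with that of cells given PGE2 alone. Whether either compound blocked its receptor in these cells was not tested, so the results describe the addition of the compounds. Members were taken by their labels: the 4 libraries with the EP1 antagonist and the 4 with the EP3 antagonist, 8 of the 52 libraries in the series, which fall into 13 groups. The cells were CD103+ cDC1 that C57BL/6 bone marrow gave in culture with FLT3L and GM-CSF, purified by sorting, and all groups used here were harvested after 4 h. The EP1 antagonist group received SC-19220 and the EP3 antagonist group received L-826,266, each at 5 uM and 30 min before PGE2 at 100 ng/ml. The group set against both received PGE2 at 100 ng/ml and no antagonist, and an untreated group gives the level without PGE2. Other groups used for comparison received PGE2 with the EP2 antagonist PF-04418948, the EP4 antagonist L161,982, or antagonists to EP2 and EP4 together. For the combined group the titles name EP2 and EP4, whereas the treatment field names SC-19220, the compound of the EP1 group, with L161,982; it is called the EP2 and EP4 group here by its title. All antagonist groups therefore share PGE2, and an antagonist without PGE2 or a vehicle group was not analysed here. A further pair of groups received medium conditioned by BRAFV600E melanoma cells (control CM) or by melanoma cells lacking Ptgs1 and Ptgs2, which make no PGE2 (PGE2-deficient CM). Each group held 4 libraries, lettered A to D and labelled as biological replicates, but the labels do not say that they came from separate animals or cultures. The p-values therefore measure the spread between these libraries, which may be technical.

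PGE2 is made from arachidonic acid by the cyclooxygenases that Ptgs1 and Ptgs2 encode, and it acts on 4 G protein coupled receptors, EP1 to EP4, the products of Ptger1 to Ptger4. EP2 and EP4 couple to Gs and raise cyclic AMP, which activates protein kinase A and transcription factors of the CREB family. EP3 couples mainly to Gi and lowers cyclic AMP, while EP1 raises intracellular calcium through Gq. In dendritic cells PGE2 is known for changing maturation, migration and cytokine output, and in tumours it is known for restraining cDC1, which carry antigen to CD8 T cells and depend on the transcription factors Irf8 and Batf3.

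RNA was read in bulk from the 3' end of transcripts, each molecule being counted by a unique molecular identifier, and levels are given in CPM, counts relative to the scaled library total. The EP1 antagonist libraries A to D held 110698, 296323, 269235 and 277242 counts, the EP3 antagonist libraries 338265, 286463, 282870 and 358471, and the PGE2 libraries 207417, 254106, 324085 and 174587. EP1 antagonist library A was thus the shallowest of these 12, and it had the highest Malat1 level, 8099 CPM against 3026 to 4419 CPM in the other EP1 antagonist libraries and 1519 to 2653 CPM in EP3 antagonist libraries. Untreated library A, at 54107 counts, was shallower still. There 3 counts give 52.4 CPM, so for genes of low level the untreated ranges given below may end at values of few counts. All 8 cDC1 markers had counts, with summed levels of 3723 to 3919 CPM in EP1 antagonist libraries, 3632 to 5906 CPM in EP3 antagonist libraries, 3897 to 4644 CPM in PGE2 libraries and 7297 to 8124 CPM in untreated libraries. Granulocyte and lymphocyte markers each summed to at most 19.1 CPM in these groups. Monocyte and macrophage markers summed to 1187 to 1375 CPM with the EP1 antagonist, 1133 to 1555 CPM with the EP3 antagonist and 1045 to 1315 CPM with PGE2 alone. Of the 14 such markers in the data, 9, 11 and 10 had counts in these groups in turn, while C1qa, Mertk and Mrc1 were at 0. Markers of type 2 conventional dendritic cells summed to 51.6 to 103.2, 47.9 to 103.3 and 59.5 to 172.1 CPM in the same order. Plasmacytoid dendritic cell markers summed to 115.2 to 167.1, 151.7 to 247.2 and 194.4 to 254.9 CPM. In bulk RNA, fewer cells of a type and less RNA per cell cannot be told apart. EP3 antagonist library B stood apart from the other 3 libraries of its group on the genes that respond to PGE2, so the main results on this group are given with and without it.

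To ask how much of the PGE2 response remained under each antagonist, a signature was taken from libraries that enter none of the antagonist comparisons. It comprised the 227 genes that differed between control CM and PGE2-deficient CM (3.95% of 5754 genes tested, 140 higher, 2.43%, and 87 lower, 1.51%, in control CM; edgeR's quasi-likelihood test, adjusted p at most 0.05). Scaled by library totals alone, 120 were higher and 121 lower. Added PGE2 moved 222 of the 227 in the same direction as control CM did. A score per library was the mean log2 CPM of the higher genes minus that of the lower genes, scaled so that the untreated mean is 0% and the PGE2 mean 100%. EP1 antagonist libraries A to D scored 101.9%, 99.7%, 100.3% and 99.0%, against 95.8%, 103.4%, 101.5% and 99.3% in PGE2 libraries. All 4 EP1 antagonist libraries lay within the range of the PGE2 libraries. EP3 antagonist libraries A to D scored 96.8%, 50.05%, 97.9% and 99.4%. Library B lay midway between the PGE2 and untreated levels, and the other 3 lay within the PGE2 range.

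The EP1 antagonist mean was 100.2% ± 1.25, against 100% ± 3.24 with PGE2 alone (SD, n = 4 each), a difference of 0.240 percentage points with a 95% interval from -4.36 to 6.08 by inversion of the two-sided exact permutation test. The EP3 antagonist mean was 86.0% ± 24.0 (SD, n = 4), a difference from PGE2 alone of -14.0 points with an interval from -53.3 to 3.52. Without library B it was 98.03% ± 1.29 (SD, n = 3), a difference of -1.97 points with an interval from -9.85 to 7.73. Pooling the 8 antagonist libraries gave -6.86 points (-26.5 to 10.7), and without library B -0.705 points (-3.93 to 2.63). The lower ends of these intervals bound the loss of the signature: -4.36 points for the EP1 antagonist and -9.85 points for the EP3 antagonist without library B, but -53.3 points with it. The ends of the scale, the untreated and PGE2 means, were treated as fixed.

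**Figure D1:**
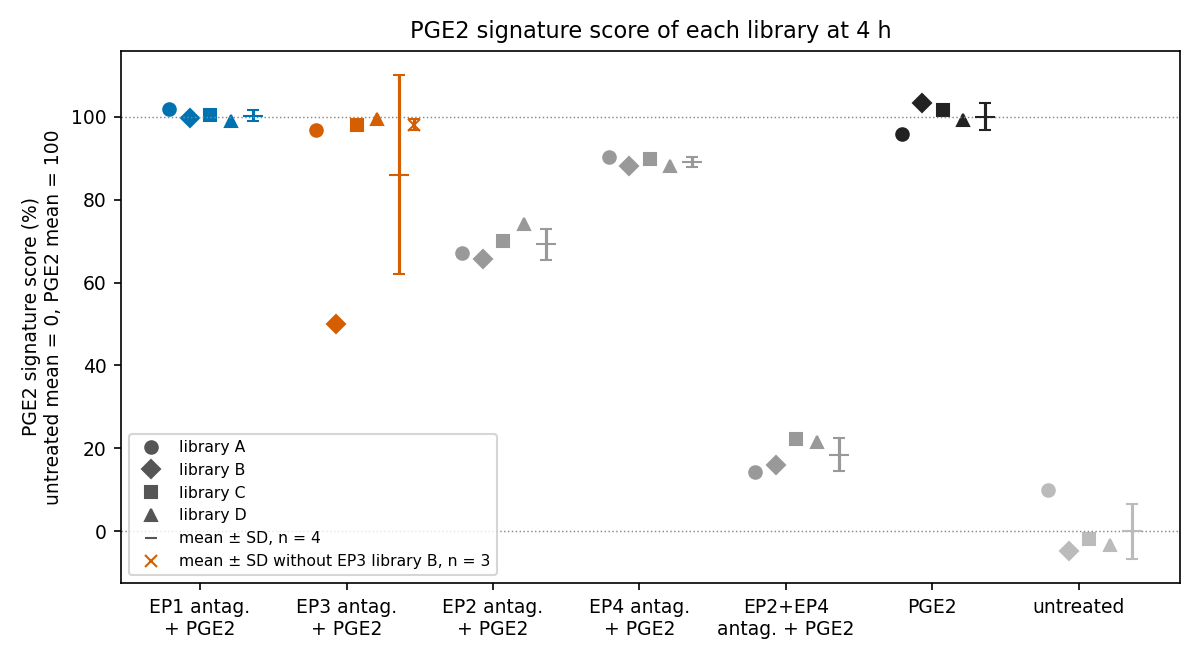
Signature score (%, untreated mean 0 and PGE2 mean 100) of each library at 4 h, with symbols for libraries A to D and bars for the mean ± SD; the extra cross gives the EP3 antagonist group without library B. EP1 antagonist libraries and 3 of 4 EP3 antagonist libraries lie within the PGE2 range, EP3 antagonist library B lies at 50.05%, and libraries given the EP2 and EP4 antagonists together lie at 14.3% to 22.2%.

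The antagonists of the Gs-coupled receptors serve as a measure of what loss of the response looks like on this scale. The EP2 antagonist libraries scored 65.6% to 74.2%, the EP4 antagonist libraries 88.0% to 90.3% and the EP2 and EP4 libraries 14.3% to 22.2%. None of the EP1 antagonist libraries overlapped any of these 3 groups. The EP1 antagonist group exceeded the EP2 antagonist group by 31.0 points (24.9 to 36.3), the EP4 antagonist group by 11.2 points (8.72 to 13.9) and the EP2 and EP4 group by 81.8 points (76.8 to 87.6). The EP3 antagonist group exceeded the EP2 antagonist group by 16.8 points (-24.1 to 33.8), or by 28.8 points (17.3 to 37.2) without library B. Against the EP4 antagonist group it differed by -3.02 points (-40.2 to 11.3), or by 8.98 points (6.12 to 11.3) without library B. Against the EP2 and EP4 group it was 67.5 points higher (27.8 to 85.0), or 79.5 points (70.8 to 89.3) without library B. The EP3 minus EP1 difference was -14.2 points (-51.9 to 0.357), or -2.21 points (-6.13 to 0.674) without library B. The groups set against PGE2 share the same 4 PGE2 libraries.

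To look at the signature gene by gene, each gene's log2 CPM was set against its PGE2 mean and signed so that negative values lie toward the untreated level. Medians over the 227 genes were -0.04, -0.01, -0.0047 and -0.07 in EP1 antagonist libraries A to D and -0.05, -0.59, -0.06 and -0.01 in EP3 antagonist libraries A to D. The PGE2 libraries themselves ran from -0.03 to 0.02, and the untreated libraries from -1.20 to -1.14. In EP3 antagonist library B, 211 of 227 genes lay on the untreated side, against 133, 124 and 116 in libraries A, C and D. No signature gene passed the test between the EP1 antagonist and PGE2 alone, where 0% of all genes did. None passed between the EP3 antagonist and PGE2 alone either, where 0.0695% of all genes did. At an unadjusted p under 0.05 there were 8 signature genes with the EP1 antagonist and 40 with the EP3 antagonist, or 25 without library B. These are 3.52%, 17.6% and 11.01% of the signature, beside 4.80%, 8.57% and 7.21% of all genes. The median change in the signature direction was -0.03 (log2) for the EP1 antagonist, -0.19 for the EP3 antagonist and -0.06 for the EP3 antagonist without library B, set against a PGE2 effect of 1.26. Over all genes tested the median was near 0 in each comparison, at -0.01.

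The width of each gene's 95% interval says how large a loss could have gone unseen. A loss of 50% of the PGE2 effect lay outside the interval for 151 of 227 genes with the EP1 antagonist and for 110 with the EP3 antagonist, or 133 without library B. A complete loss lay outside it for 202 genes with the EP1 antagonist and 199 with the EP3 antagonist. In the EP2 and EP4 group the same counts were 2 and 65. Pooling the antagonists gave 144 and 205 genes, and without library B 157 and 205. The PGE2 effect of each gene was taken as fixed in these counts.

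**Figure D2:**
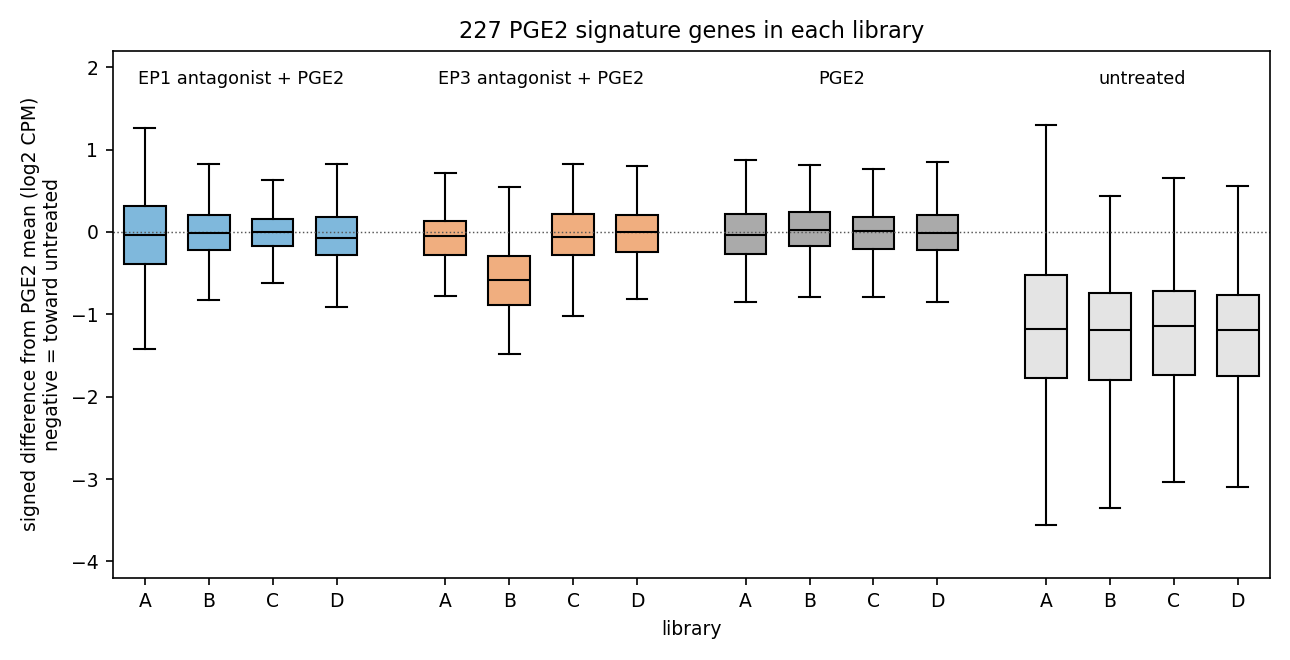
Box plots per library (median, quartiles, whiskers to 1.5 interquartile ranges, outliers not drawn) of the 227 signature genes' log2 CPM difference from the PGE2 mean, signed so that negative values lie toward untreated. Medians of EP1 antagonist libraries run from -0.07 to -0.0047, that of EP3 antagonist library B is -0.59, and untreated libraries lie at -1.20 to -1.14.

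Genes that PGE2 raises stayed near their PGE2 levels under the EP1 antagonist. Of the signature genes taken for their p between control CM and PGE2-deficient CM or listed as PGE2 response genes, 15 were higher with PGE2 than in untreated cells, and the share of the PGE2 effect kept under the EP1 antagonist had a median of 95.2% and ran from 76.4% to 104.6%. With the EP3 antagonist the median was 90.4% (67.7% to 112.6%), and without library B 98.2% (73.6% to 119.6%). The lower end of the interval stood above 50% for 15 of 15 genes with the EP1 antagonist and for 14 of 15 with the EP3 antagonist, or 15 of 15 without library B. Shares above 100% mean a larger difference from untreated cells than PGE2 alone gave.

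The most direct readouts of cyclic AMP are CREB target genes. Crem, which encodes a CREB family factor that includes cyclic AMP inducible repressors, had 242.5, 217.5, 214.4 and 155.5 CPM in EP1 antagonist libraries and 245.7, 99.6, 211.9 and 181.4 CPM in EP3 antagonist libraries. It had 205.7, 237.6, 207.8 and 140.2 CPM in PGE2 libraries and 17.5, 0, 9.91 and 6.06 CPM in untreated libraries. Library B of the EP3 antagonist group had the lowest Crem level of these 12 libraries with PGE2, and the EP1 antagonist libraries overlapped the PGE2 libraries. The kept share of Crem was 100.4% (95% interval 85.9 to 115.0) with the EP1 antagonist and 97.6% (83.5 to 111.8) with the EP3 antagonist, or 101.7% without library B. Pde4b, a phosphodiesterase that breaks down cyclic AMP, had 207.9, 184.3, 202.5 and 171.0 CPM with the EP1 antagonist, 121.3, 99.6, 187.9 and 157.6 CPM with the EP3 antagonist and 265.2, 151.2, 188.0 and 121.1 CPM with PGE2 alone. All of these lay above the untreated range of 18.2 to 34.9 CPM. Its kept share was 102.0% (86.2 to 117.8) with the EP1 antagonist, 87.0% (71.2 to 102.8) with the EP3 antagonist and 91.5% without library B.

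Nr4a2, an orphan nuclear receptor induced by cyclic AMP, was lower in most antagonist libraries than in PGE2 libraries without passing the test. Its levels were 69.3, 33.2, 43.7 and 31.1 CPM with the EP1 antagonist, 38.3, 44.3, 44.0 and 26.8 CPM with the EP3 antagonist and 59.5, 73.4, 69.3 and 57.4 CPM with PGE2 alone. The EP3 antagonist and PGE2 libraries did not overlap, while EP1 antagonist library A lay within the PGE2 range. The kept share was 84.0% (64.5 to 103.5) with the EP1 antagonist and 81.2% (62.4 to 100.0) with the EP3 antagonist, or 79.4% without library B. Il1b, the inflammatory cytokine interleukin 1 beta, had 129.9, 95.8, 107.2 and 66.1 CPM with the EP1 antagonist, 92.5, 44.3, 76.0 and 77.3 CPM with the EP3 antagonist and 189.4, 129.6, 118.7 and 121.1 CPM with PGE2 alone. All EP3 antagonist libraries lay below all PGE2 libraries, and the EP1 antagonist libraries overlapped them. Il1b had a log2 fold change of -0.92 with the EP3 antagonist (adjusted p = 0.205), which left 67.7% (48.0 to 87.5) of the PGE2 effect, or 73.6% without library B.

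Ifitm1, an interferon-inducible membrane protein that restricts virus entry, had 5890, 5732, 5857 and 6226 CPM with the EP1 antagonist and 6220, 3995, 6608 and 6606 CPM with the EP3 antagonist. PGE2 libraries had 6506, 6083, 6144 and 6399 CPM, and untreated libraries 1804 to 2148 CPM. Of these 12 libraries with PGE2, EP3 antagonist library B was the low one. The kept share was 94.9% (82.0 to 107.9) with the EP1 antagonist, 93.9% (81.1 to 106.8) with the EP3 antagonist and 102.7% without library B; reads of Ifitm1 and its paralog Ifitm2 may have been split in counting. Plet1, a membrane protein found on cDC1, had 4089, 6528, 6119 and 6370 CPM with the EP1 antagonist, 6893, 3995, 7123 and 6856 CPM with the EP3 antagonist and 6344, 5996, 6397 and 6444 CPM with PGE2 alone. EP1 antagonist library A and EP3 antagonist library B were the low ones, and both stayed above the untreated range of 980.3 to 1501 CPM. Cd83, a maturation marker, kept 104.6% (85.3 to 123.9) with the EP1 antagonist and 103.8% (85.2 to 122.5) with the EP3 antagonist, or 110.4% without library B.

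Ccl17, a chemokine that attracts T cells through CCR4, was the 1 named higher gene whose interval under the EP1 antagonist ended below 100%. It had 753.6, 958.4, 873.6 and 924.9 CPM with the EP1 antagonist, 1005, 848.5, 1015 and 785.2 CPM with the EP3 antagonist, 1196, 1270, 1068 and 796.7 CPM with PGE2 alone and 390.6 to 518.8 CPM in untreated libraries. Both antagonist groups overlapped the PGE2 libraries, of which library D was the low one. The kept share was 76.4% (55.1 to 97.6) with the EP1 antagonist and 79.7% (58.9 to 100.4) with the EP3 antagonist, or 82.2% without library B.

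**Figure D3:**
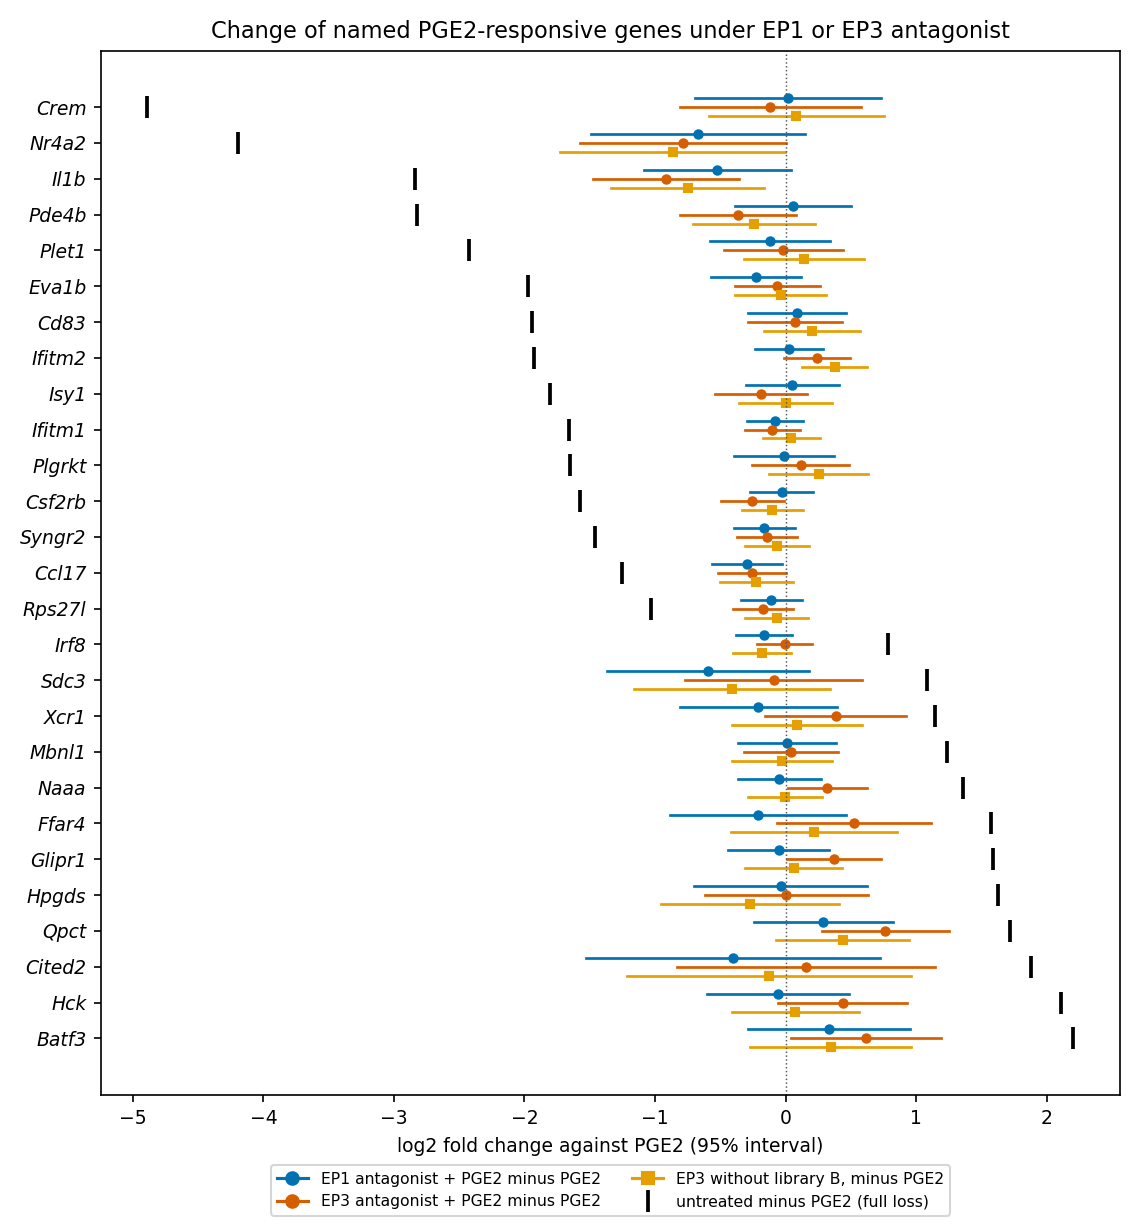
Log2 fold change against PGE2 alone with 95% intervals for 27 signature genes, taken for their p in control CM or listed as PGE2 response genes, with the EP1 antagonist, the EP3 antagonist and the EP3 antagonist without library B; the black tick is the untreated minus PGE2 value. For Crem the EP1 antagonist estimate corresponds to 100.4% of the PGE2 effect, and for Qpct the EP3 antagonist estimate corresponds to 55.5% with library B and 74.5% without it.

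Genes that PGE2 lowers, among them the factors of the cDC1 programme, stayed low under the EP1 antagonist. For the 12 signature genes chosen in the same way that were lower with PGE2, the kept share had a median of 103.4% (83.1% to 154.7%) with the EP1 antagonist. With the EP3 antagonist it was 78.0% (55.5% to 108.4%), and without library B 98.4% (74.5% to 137.7%). The lower end of the interval was above 50% for 12 of 12 genes with the EP1 antagonist and for 6 of 12 with the EP3 antagonist, or 8 of 12 without library B.

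Batf3, the transcription factor required for cDC1 development, had 78.0, 73.7, 79.4 and 62.2 CPM with the EP1 antagonist, 60.6, 136.5, 76.0 and 83.3 CPM with the EP3 antagonist and 48.7, 82.1, 36.3 and 70.1 CPM with PGE2 alone. All of these were below the untreated range of 257.4 to 275.7 CPM, and EP3 antagonist library B was the highest of the 12. The kept share of the fall was 84.8% (56.8 to 112.9) with the EP1 antagonist, 72.1% (46.0 to 98.3) with the EP3 antagonist and 84.3% without library B. Irf8, the other factor of the lineage, had 2460, 2521, 2661 and 2666 CPM with the EP1 antagonist, 2528, 3870, 2714 and 2439 CPM with the EP3 antagonist, 3145, 2691, 2770 and 3002 CPM with PGE2 alone and 4836 to 5263 CPM in untreated libraries. All EP1 antagonist libraries lay below all PGE2 libraries, on the side away from untreated cells, and the kept share was 121.4% (93.9 to 149.0). With the EP3 antagonist it was 100.9% (73.7 to 128.0), or 123.0% without library B.

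Xcr1, the chemokine receptor that marks cDC1, had 207.9, 95.8, 99.3 and 101.0 CPM with the EP1 antagonist, 178.7, 276.7, 135.9 and 110.0 CPM with the EP3 antagonist and 140.7, 112.3, 148.4 and 127.5 CPM with PGE2 alone. The high values were again EP1 antagonist library A and EP3 antagonist library B, and only the value of library B reached the untreated range of 264.2 to 313.9 CPM. Qpct, glutaminyl cyclase, had the lowest kept share of these 27 genes with the EP3 antagonist, 55.5% (27.1 to 83.9), which corresponds to a log2 fold change of 0.76 (adjusted p = 0.224); without library B it kept 74.5%. Hpgds, which makes prostaglandin D2, kept 102.4% with the EP1 antagonist and 99.6% with the EP3 antagonist, or 116.9% without library B.

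Across all 5754 genes, no gene passed the test between the EP1 antagonist and PGE2 alone (0% called; edgeR's quasi-likelihood test, smallest adjusted p = 0.578). At an unadjusted p under 0.05 there were 276 genes, or 4.80%, and DESeq2 called 0 genes and had 227 at that p. All 4 EP1 antagonist libraries lay above all PGE2 libraries for 103 of the 5754 genes and below them for 90. How many genes chance alone would place so was not worked out, so a lack of overlap in a single gene carries little weight. Genes of smallest p included Mrfap1, Clcf1 and Batf, none of which passed. Batf, a transcription factor of the AP-1 family that can stand in for Batf3, had 26.0, 22.1, 31.8 and 35.0 CPM with the EP1 antagonist, 22.3, 18.5, 32.0 and 20.8 CPM with the EP3 antagonist and 0, 4.32, 6.60 and 12.8 CPM with PGE2 alone. The PGE2 libraries were the low ones, and both antagonist groups lay near the untreated range of 23.0 to 34.9 CPM. All 4 PGE2 values of Batf lay below what 3 counts give there, 16.2, 13.0, 9.89 and 19.1 CPM in libraries A to D. In EP1 antagonist library A the level of 3 counts was 26.0 CPM, so the Batf pattern rests on few counts. With the EP1 antagonist Batf had a log2 fold change of 2.25 ± 0.769 (SE, adjusted p = 0.578), and it passed the test in the EP2 antagonist group (2.53, adjusted p = 0.0208) and in the EP2 and EP4 group (2.25, adjusted p = 0.00748), which share the PGE2 libraries. Clcf1, a cytokine of the interleukin 6 family, had 155.9, 73.7, 79.4 and 77.7 CPM with the EP1 antagonist and 5.41, 51.8, 49.5 and 38.2 CPM with PGE2 alone, without overlap (log2 fold change 1.22). Its value in PGE2 library A was also below the level of 3 counts. Mrfap1 had 95.3, 136.4, 154.9 and 171.0 CPM with the EP1 antagonist, all above the 92.0, 60.5, 72.6 and 82.9 CPM with PGE2 alone (log2 fold change 0.93).

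With the EP3 antagonist, 4 of 5754 genes passed the test against PGE2 alone (0.0695%): Rpl18 was higher (0.0174%) and Dst, Btg1 and Ccdc88a were lower (0.0521%). With scaling by library totals alone 3 were higher and 3 lower. DESeq2 called 5 genes, these 4 among them, and 493 genes, or 8.57%, had an unadjusted p under 0.05. All 4 EP3 antagonist libraries lay above all PGE2 libraries for 172 of the 5754 genes and below them for 147, and the number due to chance was again not worked out. None of the 4 passed when the EP1 antagonist, EP3 antagonist and PGE2 groups alone were fitted (adjusted p = 0.0547 for Rpl18, Dst and Btg1 and 0.0897 for Ccdc88a). None passed with no filter on low counts either (adjusted p = 0.125 for Rpl18 and Dst, 0.135 for Btg1 and 0.169 for Ccdc88a). Each call was also lost in some fit that left out a single library, as given with each gene.

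Rpl18, a protein of the large ribosomal subunit (chr7:45715457-45720836, plus strand, GRCm38, from the GENCODE annotation, as for the genes below), had 386.2, 313.6, 387.8 and 425.3 CPM in EP3 antagonist libraries, 164.6, 261.7, 301.8 and 295.4 CPM in EP1 antagonist libraries and 216.5, 224.6, 220.9 and 254.9 CPM in PGE2 libraries. Every EP3 antagonist library was above every PGE2 library. The log2 fold change was 0.73 ± 0.165 with the EP3 antagonist (SE, adjusted p = 0.0278) and 0.22 with the EP1 antagonist (adjusted p = 0.974). Without library B it was 0.81 (adjusted p = 0.0252). Over 12 fits that each left out 1 library of the EP1 antagonist, EP3 antagonist or PGE2 groups, it ran from 0.67 to 0.81 and passed in 6. It did not pass without EP3 antagonist library A (adjusted p = 0.0792), C (0.123) or D (0.114), or without PGE2 library A (0.119), B (0.154) or C (0.0956).

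Dst encodes dystonin, a large linker of the cytoskeleton (chr1:33908225-34308661, plus strand). It had 44.7, 36.9, 28.0 and 65.4 CPM with the EP3 antagonist, 147.3, 66.4, 99.3 and 85.5 CPM with the EP1 antagonist and 129.9, 86.4, 89.0 and 178.5 CPM with PGE2 alone. The EP3 antagonist libraries lay below all PGE2 libraries and overlapped the untreated range of 34.5 to 69.8 CPM. That range, like the untreated range of Btg1 below, includes untreated library A, where 3 counts give 52.4 CPM. The log2 fold change of Dst was -1.36 ± 0.305 with the EP3 antagonist (SE, adjusted p = 0.0278) and -0.31 with the EP1 antagonist (adjusted p = 0.978). Against a PGE2 effect of 1.37, 0.986% (-42.8 to 44.8) of the effect was kept with the EP3 antagonist. Dst was named for its low p, and the same PGE2 libraries set both values, so this share may be too low. That limit also holds for Btg1 below. In the EP2 and EP4 group, which shares the PGE2 libraries, Dst also fell (log2 fold change -1.41, adjusted p = 0.000116). Without EP3 antagonist library B the value was -1.28 (adjusted p = 0.0894), and it also did not pass without EP3 antagonist library A (adjusted p = 0.0792) or C (0.187) or PGE2 library A (0.119) or D (0.208).

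Btg1, an inhibitor of cell proliferation (chr10:96617006-96622809, plus strand), had 47.9, 40.6, 48.0 and 56.5 CPM with the EP3 antagonist, 112.6, 70.0, 59.6 and 108.8 CPM with the EP1 antagonist and 162.4, 112.3, 112.1 and 95.6 CPM with PGE2 alone. The EP3 antagonist libraries lay below all libraries of both other groups, and 3 of the 4 lay within the untreated range of 17.5 to 48.5 CPM. The log2 fold change was -1.30 ± 0.298 with the EP3 antagonist (SE, adjusted p = 0.0278), which left 22.4% of a PGE2 effect of 1.68, and -0.50 with the EP1 antagonist (adjusted p = 0.973). Against the same PGE2 libraries Btg1 also fell with the EP2 antagonist (-1.21, adjusted p = 0.0188), the EP4 antagonist (-1.58, adjusted p = 0.0252) and both together (-1.76, adjusted p = 1.13e-06). Without EP3 antagonist library B it was -1.23 (adjusted p = 0.096). It did not pass without EP3 antagonist library A (adjusted p = 0.0792), C (0.123) or D (0.0911) or PGE2 library A (0.221), B (0.11) or C (0.0684).

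Ccdc88a encodes girdin, an actin-binding regulator of Gi proteins (chr11:29373658-29510808, plus strand). Between PGE2 alone and untreated cells Ccdc88a did not pass (log2 fold change 0.23, adjusted p = 0.673), and neither did the called gene Rpl18. Ccdc88a had 79.8, 73.8, 60.0 and 77.3 CPM with the EP3 antagonist, 190.6, 103.2, 107.2 and 104.9 CPM with the EP1 antagonist and 119.1, 203.0, 148.4 and 121.1 CPM with PGE2 alone. The EP3 antagonist libraries lay below all others of these groups and below the untreated range of 99.6 to 148.7 CPM. Its log2 fold change was -1.03 ± 0.242 with the EP3 antagonist (SE, adjusted p = 0.0359) and -0.34 with the EP1 antagonist (adjusted p = 0.973). Without EP3 antagonist library B it was -1.04 (adjusted p = 0.0894), and it did not pass without EP3 antagonist library A (0.0792), C (0.211) or D (0.109) or PGE2 library A (0.0857), B (0.287) or C (0.0956).

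**Figure D4:**
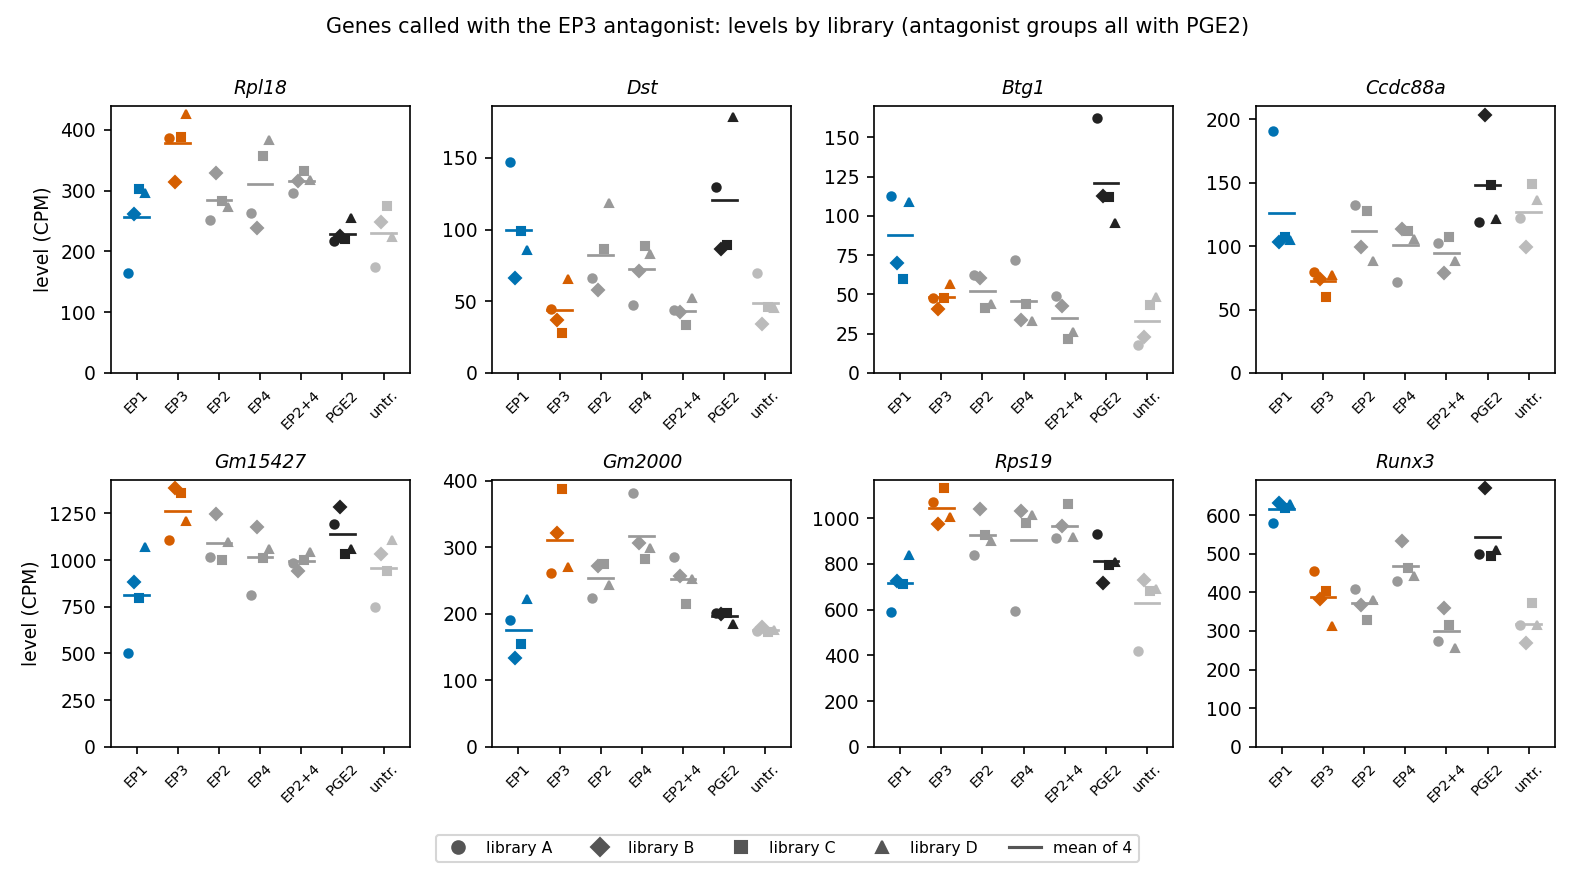
CPM per library (symbols for A to D, line for the mean of 4) of the genes called with the EP3 antagonist against PGE2 alone (Rpl18, Dst, Btg1, Ccdc88a) or against the EP1 antagonist (Gm15427, Gm2000, Rps19, Runx3), in 7 groups at 4 h. For Btg1 the EP3 antagonist libraries lie at 40.6 to 56.5 CPM and the PGE2 libraries at 95.6 to 162.4 CPM.

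The start regions of 3 of the named genes are printed to show where matches to the CREB motif stand in them. Nr4a2 is a known CREB target that PGE2 raised. Btg1 is a called gene that also fell with the EP2 antagonist, the EP4 antagonist and both. Rpl18 is the called gene that was higher, and a link of it to cyclic AMP was not tested. Only windows that held a match were taken for printing, so the presence of a match is not a result. Each start region is a 300 base window of RefSeq (GRCm38.p6), printed from 5' to 3' on the gene's strand, ending 50 bases past the start of transcription. The Rpl18 window lies inside the GENCODE span given above for that gene, so the RefSeq start used for it differs from the GENCODE start. Capitals mark the CREB motif TGACGTCA or its 5 base cores TGACG and CGTCA, searched on both strands, the cores being part of the full motif.
Nr4a2, chr2:57123954-57124253, minus strand: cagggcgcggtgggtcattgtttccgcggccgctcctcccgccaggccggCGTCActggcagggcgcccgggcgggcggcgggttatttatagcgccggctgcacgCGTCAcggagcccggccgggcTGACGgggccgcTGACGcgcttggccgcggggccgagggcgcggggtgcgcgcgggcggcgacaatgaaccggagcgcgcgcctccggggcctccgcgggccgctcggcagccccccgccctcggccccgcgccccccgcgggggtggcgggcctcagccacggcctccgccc
Btg1, chr10:96616751-96617050, plus strand: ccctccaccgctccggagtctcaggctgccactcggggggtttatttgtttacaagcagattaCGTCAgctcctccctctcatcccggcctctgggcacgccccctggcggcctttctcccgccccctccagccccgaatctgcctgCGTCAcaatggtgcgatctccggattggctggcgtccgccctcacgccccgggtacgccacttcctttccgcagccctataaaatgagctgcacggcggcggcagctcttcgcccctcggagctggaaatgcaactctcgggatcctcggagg
Rpl18, chr7:45717821-45718120, plus strand: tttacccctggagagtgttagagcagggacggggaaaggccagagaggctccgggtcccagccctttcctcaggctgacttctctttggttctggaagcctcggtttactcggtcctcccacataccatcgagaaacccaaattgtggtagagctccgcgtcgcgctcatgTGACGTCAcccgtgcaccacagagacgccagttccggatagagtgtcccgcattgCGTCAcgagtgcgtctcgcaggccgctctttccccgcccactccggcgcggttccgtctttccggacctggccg
The Nr4a2 window held 4 core matches and no full motif, the Btg1 window 2 cores, and the Rpl18 window 1 full motif with a further core apart from it. The full motif stood in 1.79% of all 32851 windows and a core in 20.8%. Among genes tested with a window, 4404 of 5754, the shares were 3.97% and 39.4%. Shares of genes, here and below, count a match in any window of a gene, so they cannot be set against the shares per window. Of signature genes higher in control CM, 110 of 140 had a window, with the full motif in 2.73% and a core in 37.3%. Of those lower, 63 of 87 had a window, with the full motif in 1.59% and a core in 25.4%. The windows of Runx3, Ccdc88a, Rps19, Arpp19 and Bax held none of these letters, while 1 of 2 windows of Dst and 1 of 4 of Pde4b held a core. A match describes these letters and shows no binding.

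Genes next in order with the EP3 antagonist did not pass the test. Arpp19, a regulator of the phosphatase PP2A that protein kinase A can phosphorylate, had 376.6, 321.0, 343.8 and 359.9 CPM with the EP3 antagonist, 415.8, 287.5, 278.0 and 303.1 CPM with the EP1 antagonist and 178.6, 185.8, 267.1 and 229.4 CPM with PGE2 alone. All 8 antagonist libraries lay above all 4 PGE2 libraries. The log2 fold change was 0.69 with the EP3 antagonist (adjusted p = 0.0503) and 0.51 with the EP1 antagonist (adjusted p = 0.973). In the groups that share the PGE2 libraries it passed with the EP2 antagonist (0.73, adjusted p = 0.00947), the EP4 antagonist (0.80, adjusted p = 0.0252) and both (1.05, adjusted p = 4.49e-08), and untreated libraries ran from 157.1 to 356.1 CPM. Bax, a pro-apoptotic BCL2 family member, was at 0.53 (adjusted p = 0.0783) and Ahnak, a large scaffold protein, at -0.61 (adjusted p = 0.0801). Without library B the adjusted p was 0.0894 for Arpp19 and Bax and 0.309 for Ahnak.

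With both antagonist groups pooled against PGE2 alone, 0 genes passed (0%; edgeR's quasi-likelihood test, smallest adjusted p = 0.379), 354 genes, or 6.15%, had an unadjusted p under 0.05, and DESeq2 also called 0 genes. The genes of smallest p were Arpp19 (log2 fold change 0.60), Ahnak (-0.52), Ei24 (-1.34), Btg1 (-0.90), mt-Rnr2 (-0.33), Bax (0.42), Batf (2.09), Mysm1 (-1.07), Ccdc88a (-0.69) and Dst (-0.83). Pooling narrowed the intervals: at the median gene the 95% interval reached 0.68 (log2) to either side of the EP1 antagonist estimate, 0.65 for the EP3 antagonist and 0.58 for the pool, which are folds of 1.60, 1.57 and 1.49. For the 782 genes at or above 200 CPM these were 0.33, 0.31 and 0.28, and the interval lay within 2-fold of PGE2 alone for 99.5%, 99.4% and 99.9% of them. For the 2423 genes under 50 CPM it lay within 2-fold for 20.6%, 24.7% and 40.8%, so that a 2-fold change lay within the interval for most of these.

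The antagonists were also set against each other at their matched dose and time. Between the EP3 and EP1 antagonist groups 4 genes passed (0.0695%; 3 higher and 1 lower with the EP3 antagonist; edgeR's quasi-likelihood test), 502 genes, or 8.72%, had an unadjusted p under 0.05, and DESeq2 called 23. Runx3, a transcription factor of lymphocytes and dendritic cells (chr4:135120652-135177990, plus strand), was the 1 signature gene among them. It had 456.4, 383.7, 403.7 and 312.3 CPM with the EP3 antagonist, 580.4, 630.3, 619.5 and 629.6 CPM with the EP1 antagonist, 498.0, 669.6, 494.6 and 509.9 CPM with PGE2 alone and 268.1 to 373.4 CPM in untreated libraries. The EP3 antagonist libraries lay below all EP1 antagonist and PGE2 libraries. The log2 difference was -0.67 ± 0.141 (SE, adjusted p = 0.00779), and without library B it kept an adjusted p of 0.0425. It did not pass without EP3 antagonist library C (adjusted p = 0.0808) or D (0.0876). Against PGE2 alone Runx3 was at -0.49 with the EP3 antagonist (adjusted p = 0.201) and at 0.18 with the EP1 antagonist (adjusted p = 0.974). That kept 36.6% (-0.0373 to 73.3) of its PGE2 effect with the EP3 antagonist, or 37.3% without library B, and 123.8% (87.7 to 159.9) with the EP1 antagonist.

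The genes higher with the EP3 antagonist than with the EP1 antagonist were Rps19, Gm15427 and Gm2000. Rps19, a protein of the small subunit (chr7:24884371-24889806, plus strand), had 1072, 973.9, 1131 and 1005 CPM with the EP3 antagonist, 589.0, 726.2, 710.8 and 839.4 CPM with the EP1 antagonist and 931.0, 717.1, 794.7 and 809.4 CPM with PGE2 alone, with no overlap between the antagonist groups. The log2 difference of Rps19 was 0.53 ± 0.123 (SE, adjusted p = 0.0453). Gm15427, annotated as a processed pseudogene (chr1:95498621-95499151, plus strand), had 1107, 1383, 1359 and 1208 CPM with the EP3 antagonist and 502.4, 884.7, 798.2 and 1069 CPM with the EP1 antagonist (0.60 ± 0.123, SE, adjusted p = 0.00779). Gm2000 (chr1:156366040-156366484, plus strand) had 261.7, 321.0, 387.8 and 270.7 CPM with the EP3 antagonist, 190.6, 132.7, 154.9 and 221.5 CPM with the EP1 antagonist and 184.8 to 201.2 CPM with PGE2 alone (0.83 ± 0.177, SE, adjusted p = 0.00779). EP1 antagonist library A was the lowest for Gm15427 and Rps19. Reads of such genes can be split among near-identical copies, so their levels are uncertain. Without EP3 antagonist library B all 3 had an adjusted p of 0.0425. Rps19 did not pass without EP1 antagonist library A (0.229), B (0.0609) or C (0.0748) or EP3 antagonist library A (0.152) or C (0.168). Gm15427 did not pass without EP1 antagonist library A (0.229) or EP3 antagonist library C (0.0808), and Gm2000 did not without EP1 antagonist library B (0.069) or C (0.0588) or EP3 antagonist library C (0.168).

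Genes whose symbols begin with Rpl or Rps and a digit took 4.83% to 4.99% of counts in EP3 antagonist libraries, 3.73% to 4.72% in EP1 antagonist libraries and 4.07% to 4.44% in PGE2 libraries. A narrower list of 97 such symbols, taken here as ribosomal protein genes, had 65 tested. It was matched by symbol alone and holds the signature gene Rps27l. Both sets were drawn up after these values were seen. With the EP3 antagonist 1 passed against PGE2 alone, 16 were higher and 2 lower at an unadjusted p under 0.05 (249 higher and 244 lower among all 5754 genes), and the median log2 fold change was 0.18, or 0.21 without library B, set against -0.01 over all genes. With the EP1 antagonist 0 passed, 2 were higher and 0 lower at an unadjusted p under 0.05 (153 and 123 among all genes), and the median was -0.01. The share of mitochondrial transcripts was 1.60% to 1.99% with the EP1 antagonist, 1.63% to 1.82% with the EP3 antagonist and 1.90% to 2.15% with PGE2 alone, and its part in these results was not tested.

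Both antagonist groups differed from the EP2 and EP4 group in many genes. The EP1 antagonist group differed from it in 617 genes (10.7%; 336 higher, 5.84%, and 281 lower, 4.88%, with the EP1 antagonist) and the EP3 antagonist group in 326 (5.67%; 193 higher, 3.35%, and 133 lower, 2.31%, or 167 and 194 with scaling by library totals alone; 408 without library B), while the EP2 and EP4 group differed from PGE2 alone in 548 (9.52%). Set against the EP2 antagonist alone, the EP1 antagonist group differed in 17 genes (0.295%; 12 higher, 0.209%, and 5 lower, 0.0869%), among them Runx3 (0.73, adjusted p = 0.00154). The balance of directions in that comparison depended on the test, since DESeq2 called 11 higher and 26 lower, 6 of them shared with edgeR, and on EP1 antagonist library B, without which 15 were higher and 16 lower. The EP3 antagonist group differed from the EP2 antagonist group in 0 genes (0%; edgeR's quasi-likelihood test, 387 genes or 6.73% at an unadjusted p under 0.05; DESeq2 0), and without library B in 23. The EP1 antagonist group differed from untreated cells in 569 genes (9.89%) and the EP3 antagonist group in 485 (8.43%), or 533 without library B, beside 493 (8.57%) for PGE2 alone against the same untreated libraries. The EP2 antagonist called 24 genes against PGE2 alone (0.417%) and the EP4 antagonist 2 (0.0348%). For the signature the median change was -0.37 with the EP2 antagonist, -0.17 with the EP4 antagonist and -1.04 with both.

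The receptors themselves were low at the RNA level. Ptger1, which encodes EP1 (chr8:83666678-83672753, plus strand), had 0 counts in all 4 EP1 antagonist and all 4 EP3 antagonist libraries, and 0, 4.32, 3.30 and 0 CPM in PGE2 libraries, which is 2 counts. A count of 0 in a whole group allows up to 3 counts, or 3.35 CPM in the EP1 antagonist group and 2.56 CPM in the EP3 antagonist group, for counting error only. Ptger1 was thus not detected in either antagonist group at this depth, and it entered no test.

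Ptger3, which encodes EP3 (chr3:157566892-157645888, plus strand), was detected in every library of these groups and fell with PGE2. It had 43.3, 33.2, 31.8 and 23.3 CPM with the EP1 antagonist, 28.7, 36.9, 40.0 and 41.6 CPM with the EP3 antagonist, 27.1, 38.9, 23.1 and 25.5 CPM with PGE2 alone and 122.2, 53.6, 89.2 and 81.8 CPM in untreated libraries. All 12 of these libraries with PGE2 lay below all untreated ones, and the antagonist groups overlapped the PGE2 libraries. The log2 fold change against PGE2 alone was 0.14 ± 0.437 with the EP1 antagonist (SE, adjusted p = 0.996) and 0.36 ± 0.406 with the EP3 antagonist (SE, adjusted p = 0.883; also 0.36 without library B). Against untreated cells it was -1.33 with the EP1 antagonist (adjusted p = 0.00554), -1.11 with the EP3 antagonist (adjusted p = 0.0162) and -1.47 with PGE2 alone (adjusted p = 0.00212). In the EP2 and EP4 group Ptger3 had 60.4 to 67.7 CPM and was 1.16 above PGE2 alone (adjusted p = 0.0204), and the EP1 antagonist group was 1.02 below that group (log2 difference -1.02, adjusted p = 0.0382).

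Ptger2, which encodes EP2 (chr14:44988195-45003820, plus strand), had 34.7, 47.9, 55.6 and 46.6 CPM with the EP1 antagonist, 73.4, 25.8, 40.0 and 17.8 CPM with the EP3 antagonist, 16.2, 38.9, 23.1 and 63.7 CPM with PGE2 alone and 11.5 to 52.4 CPM in untreated libraries. The groups overlapped and none of the comparisons passed. Ptger4, which encodes EP4 (chr15:5206661-5244187, minus strand), was too low to be tested, with 11 counts over the EP1 antagonist group, 4 over the EP3 antagonist group, 7 over the PGE2 group and 28 over the untreated group. Untreated libraries had 19.2 to 87.3 CPM of Ptger4, and of the libraries with PGE2 named here only EP1 antagonist library D, at 23.3 CPM, and PGE2 library B, at 25.9 CPM, reached that range.

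**Figure D5:**
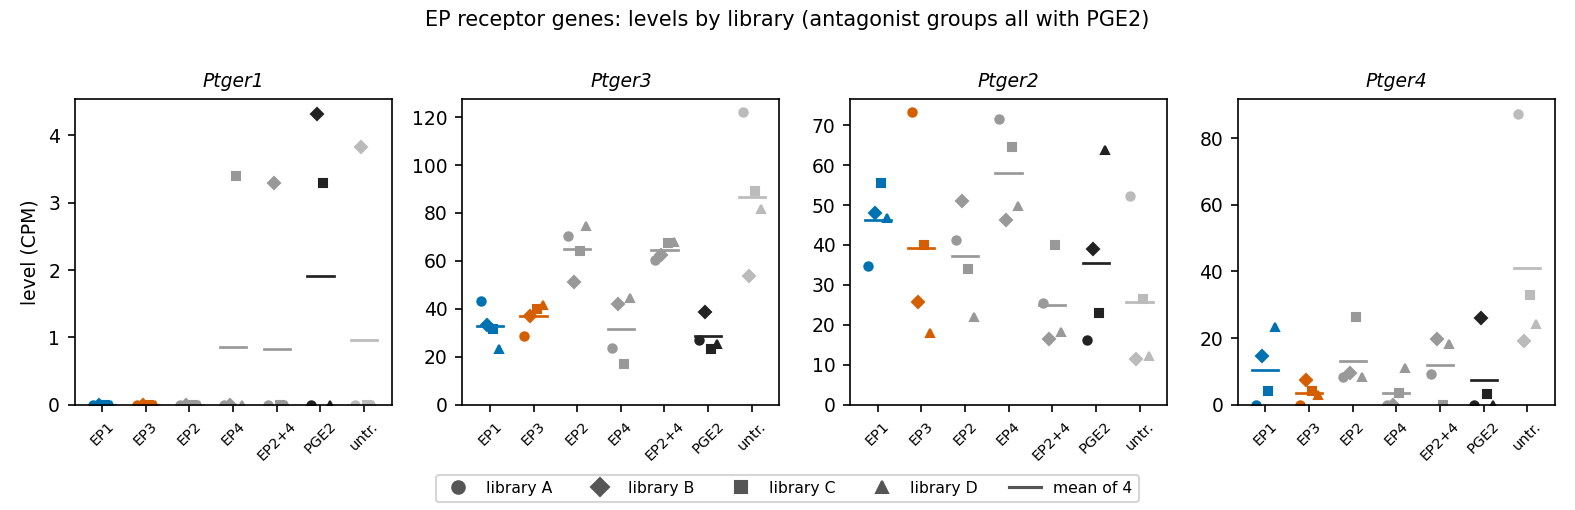
CPM per library (symbols for A to D, line for the mean of 4) of the receptor genes Ptger1, Ptger3, Ptger2 and Ptger4 in 7 groups at 4 h. Ptger1 lies at 0 in every EP1 and EP3 antagonist library, and Ptger3 lies at 23.1 to 43.3 CPM in the EP1 antagonist, EP3 antagonist and PGE2 libraries, below the untreated 53.6 to 122.2 CPM.

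Gene lists for the routes downstream of these receptors held no called member in the EP1, EP3, pooled or EP3 against EP1 comparisons, with the exception of ribosomal protein genes given above. Of 23 calcium, NFAT and protein kinase C genes, the route EP1 uses, 15 were tested, and 0 were below an unadjusted p of 0.05 with either antagonist; the median log2 fold change was -0.08 with each, or -0.14 with the EP3 antagonist without library B. Of 23 cyclic AMP and CREB target genes, the route that EP3 damps, 11 were tested. With the EP1 antagonist 0 had an unadjusted p under 0.05 (median -0.02) and with the EP3 antagonist 0 were higher and 2 lower (median -0.22, or -0.16 without library B). Of 27 genes for G proteins, adenylyl cyclases and protein kinase A, 17 were tested, with 0 with the EP1 antagonist and 1 higher and 2 lower with the EP3 antagonist at that p, or 0 higher and 2 lower without library B. Among all genes, 153 were higher and 123 lower at that p with the EP1 antagonist and 249 higher and 244 lower with the EP3 antagonist.

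NF-kB target genes, which carry inflammatory signals in dendritic cells, had 18 members tested and 0 called. With the EP3 antagonist 0 were higher and 6 lower at an unadjusted p under 0.05, Il1b among them, with a median of -0.34; without library B 2 were lower and the median was -0.32. With the EP1 antagonist 2 were lower and the median was -0.17. Of 22 cDC1 identity genes 21 were tested, with 1 lower at that p with the EP1 antagonist (median -0.08) and 3 higher with the EP3 antagonist (median 0.07), or 1 higher and 3 lower without library B (median -0.01). Of 12 tested maturation genes, 0 with the EP1 antagonist (median -0.12) and 3 with the EP3 antagonist (median -0.04) were lower at that p, or 1 without library B (median -0.11). Of 14 tested xenobiotic and oxidative response genes, 11 of which PGE2 itself raised over untreated cells, 0 had that p with the EP1 antagonist (median 0.10) or the EP3 antagonist (median -0.07), and 1 was higher without library B (median 0.09). Of 15 tested heat shock and stress genes, 0 had that p with the EP1 antagonist (median -0.08), and 3 were higher and 1 lower with the EP3 antagonist (median -0.09), or 0 higher and 1 lower without library B (median -0.03). Of 14 cholesterol synthesis genes, 1 was lower at that p with each antagonist (medians -0.14 and -0.19; -0.09 with the EP3 antagonist without library B).

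EP3 antagonist library B differed from libraries A, C and D of its group in many genes of the signature, which is a description of 1 library without a test. Among genes averaging at least 50 CPM, 9 genes high in it relative to the mean of the other 3 were led by Lat2 (log2 difference 1.56), Man1b1 (1.37), Lbh (1.36) and Gfpt1 (1.31). Of these 9, 4 belong to the signature, which makes up 3.95% of the 5754 genes tested. Its share among genes at 50 CPM or more was not worked out. Naaa, a lysosomal amidase that marks cDC1, had 1096 CPM in library B against 539.3, 563.6 and 517.5 CPM in libraries A, C and D. The 10 lowest were led by G6pdx, which feeds the pentose phosphate pathway, with 11.1 CPM in library B against 114.9, 80.0 and 154.7 CPM (log2 difference -2.68), and Tnip1, an inhibitor of NF-kB, with 11.1 CPM against 76.6, 91.9 and 62.5 CPM (-2.16). Of those 10, 1 belongs to the signature. The depth of library B, 286463 counts, lay between those of libraries A, C and D. Its position was not the sole one of its kind: library B of the PGE2-deficient CM group scored 48.4%, against -2.51%, 3.66% and 4.29% in libraries A, C and D. What set either library apart was not tested.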

How the data were processed

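Bulk RNA of CD103+ cDC1 was sequenced at the 3' end with UMIs (molecule tags). The authors made tables of these, per the labels' protocols, with the Drop-seq pipeline on GRCm38 with Ensembl release 75, and the deposited table holds whole-number counts per gene and library, not normalised. The submitters' processing notes name DESeq2 1.14.1 and GRCm38.p6. Whether counting used strand, like the aligner, is not given in the sources used here; hence overlapping or antisense genes cannot be told apart, and reads of paralogs may be split.

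Of 23136 lines, 1 with a text entry was left out, and 20 lines whose symbols had become dates (0.105% of counts) were not named. Libraries at 4 h held 42666 to 438491 counts (median 281726); a count of 0 in a library allows 3 counts, at most 26.0 CPM in EP1 antagonist and 12.0 CPM in EP3 antagonist libraries, for counting error only. Replicate pairs of the EP1 antagonist, EP3 antagonist and PGE2 groups differed by more than counting noise (chi-square per degree of freedom 1.38 to 2.70 over 18 pairs).

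The 36 libraries at 4 h, in 9 groups by label, were fitted together with edgeR 4.0.16 in R 4.3.3 (TMM scaling, filterByExpr by group, robust quasi-likelihood test). This left 5754 genes; p-values were Benjamini-Hochberg adjusted over them within each comparison, and 0.05 was the threshold. Every adjusted p in the text is from that test. Fits of this kind were tested on simulated data. CPM uses TMM-adjusted totals; log2 CPM for the score adds a prior count of 2. The kept share of a gene is 1 plus the ratio of its log2 fold change against PGE2 to its PGE2 effect, as a percent, and its interval treats the PGE2 effect as fixed. Alternatives were DESeq2 1.42.0, other scalings, no filter, only the groups compared, each library of the EP1 antagonist, EP3 antagonist and PGE2 groups left out, a replicate block, a log2 fold change of at least 1.5 as the labels state and another signature. Left-out pairs of libraries and a signature without PGE2-deficient CM library B were added after seeing the data.

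Named genes were the called genes or the 10 of smallest p in each antagonist comparison, the 10 signature genes of smallest p in each direction, the EP receptors and 12 genes of the PGE2 response, and the 10 highest and lowest genes of EP3 antagonist library B at 50 CPM or more; from these the text gives those the results turn on, and 1 gene is not reported here. The members and lists were chosen with earlier results of these data known.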

Additional observations from a re-analysis of the deposited data

Results flagged for a closer look

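Within groups of 4 libraries, the highest or lowest value was tested for standing apart from the other 3 by Dixon's ratio at its 95% critical value for the score and 39 named genes, 126 tests in all, of which 15 stood out; chance gives about 1 in 20 groups. The score of EP3 antagonist library B was 50.05%, against 96.8% to 99.37% in libraries A, C and D, and that of PGE2-deficient CM library B was 48.45%, against -2.509% to 4.286%. In EP3 antagonist library B, Ifitm1 was at 3995 CPM (others 6220 to 6608), Plet1 at 3995 CPM (others 6856 to 7123), Rps27l at 1158 CPM (others 1576 to 1655) and Naaa at 1096 CPM (others 517.5 to 563.6). All 4 of these genes belong to the signature, as do most of the 39 named genes, so their membership is not a further result. In library B each of the 4 lay on the untreated side of its group.

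In EP1 antagonist library A, the shallowest of its group, Xcr1 was at 207.9 CPM (others 95.84 to 101), Ccdc88a at 190.6 CPM (others 103.2 to 107.2) and Plet1 at 4089 CPM (others 6119 to 6528). In other EP1 antagonist libraries, Isy1 was at 262.1 CPM in library C (others 329.2 to 342.8) and Ffar4 at 62.18 CPM in library D (others 40.55 to 43.68). Among PGE2 libraries, Il1b was at 189.4 CPM in library A (others 118.7 to 129.6), Runx3 at 669.6 CPM in library B (others 494.6 to 509.9), Ptger4 at 25.92 CPM in library B (others 0 to 3.298) and Gm2000 at 184.8 CPM in library D (others 198.7 to 201.2).

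The effects of the EP3 and EP1 antagonists differed by a test of the difference itself for 4 genes. The log2 difference, EP3 minus EP1, was 0.5958 for Gm15427, 0.8319 for Gm2000, 0.5255 for Rps19 and -0.6697 for Runx3 (edgeR's quasi-likelihood test, adjusted p = 0.00779 for Gm15427, Gm2000 and Runx3 and 0.0453 for Rps19). With EP1 antagonist library A and EP3 antagonist library B both left out, the adjusted p was 0.417 for Gm15427, 0.0565 for Gm2000, 0.23 for Rps19 and 0.0565 for Runx3.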

How the results depend on the processing

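No gene was called for the EP1 antagonist or for the pool against PGE2 under any alternative run, which included leaving out each of the 12 libraries of the EP1 antagonist, EP3 antagonist and PGE2 groups (0 to 0); libraries of other groups were not left out singly. For the EP3 antagonist against PGE2 (4 genes), 0 were called with no filter on low counts, with only the groups compared in the fit and with a log2 fold change of at least 1.5, and 1 without EP1 antagonist A and EP3 antagonist B or without EP3 antagonist B and PGE2-deficient CM B. Leaving out 1 library gave 0 (EP3 antagonist A or C, or PGE2 A) to 6 (EP1 antagonist A). For EP3 against EP1 (4), the counts were 23 with DESeq2, 0 with only the groups compared, 0 without EP1 antagonist A and EP3 antagonist B, 7 without both B libraries, 0 at a log2 fold change of 1.5, and 0 (without EP3 antagonist C) to 11 (without EP1 antagonist D) leaving out 1 library.

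For EP1 against EP2 (17), DESeq2 called 37, the replicate block 38, the fit without the shallow libraries EP4 antagonist A and untreated A 29, without EP1 antagonist A and EP3 antagonist B 31, without both B libraries 57, a log2 fold change of 1.5 5, and 1 library left out 14 to 40 (EP3 antagonist B). For EP3 against EP2 (0), no filter gave 3, both pairs left out 29 and 42, and 1 library left out 0 to 23 (EP3 antagonist B). For the EP2 antagonist (24), 43 were called without both B libraries, 7 at 1.5, and 7 (PGE2 B) to 32 (EP3 antagonist B) with 1 left out. For the EP4 antagonist (2), the counts were 0 without filter, 1 without the shallow ones, 1 at 1.5 and 0 to 3.

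At a log2 fold change of 1.5 and with 1 library left out, the counts were 156 and 408 to 503 for PGE2 (493), 52 and 220 to 243 for control CM, 110 and 403 to 563 for EP2 and EP4 (548), 115 and 522 to 636 for EP1 against EP2 and EP4 (617), and 70 and 220 to 408 for EP3 against EP2 and EP4 (326). The mean score ran from 98.9% to 101.4% for the EP1 antagonist and from 81.6% to 98.03% for the EP3 antagonist. Scaling by library totals alone moved the median of all genes by -0.13 in PGE2 against untreated. The cause of these changes was not tested.

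The letters A to D showed no clear pairing of the libraries. Deviations of the same letter correlated at -0.03 to 0.03, and the means over other letters lay at -0.01 to 0.01. In each of the EP1 antagonist, EP3 antagonist and PGE2 groups, 0 of 4 libraries correlated best with their own letter in both other groups. Few would do so without pairing, so that count cannot decide whether the letters pair the libraries. The replicate block gave 0 genes for the EP1 antagonist, 5 for the EP3 antagonist, 0 for the pool and 5 for EP3 against EP1. Over the named genes, 62 values lost and 25 gained a call, 101 moved, 3088 kept their side of the threshold, and none reversed. Depth limits genes under 50 CPM most. The fit with only the groups compared was not run for comparisons with further groups.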
